A study of Bos taurus with 138 samples.

Results

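Insulin-like growth factors and insulin signal through tyrosine kinase receptors at the cell surface. Ligand binding activates the receptor kinase, which recruits insulin receptor substrate adaptors and through them the PI3K, AKT and mTOR cascade. Secreted binding proteins hold the growth factors away from, or bring them to, the receptors. Mammalian oocytes and early embryos carry receptors of this family and respond to added growth factor in culture.

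The genes described here were IGF1R, INSR, IGF2R, IGFBP2, IGFBP3, IGFBP4, IGFBP7, IRS1 and IRS2. They were chosen by name and were 9 of the 16706 genes in the counts table. All 9 symbols were found in RefSeq. Of the 9, 8 passed the filter on low counts and were among the 14612 genes of the statistical model, and IRS2 did not pass.

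Bovine oocytes and embryos of 6 stages were compared: germinal vesicle (GV) oocytes, metaphase II (MII) oocytes, 2-cell embryos, 8-cell embryos, morulae and blastocysts. The stages carried no engineered allele and no treatment contrast. GV oocytes came from cumulus-oocyte complexes of slaughterhouse ovaries, MII oocytes were matured in vitro and the cumulus was stripped off, and embryos were made by in vitro fertilization with semen of a single Holstein bull and cultured in vitro. Each library is therefore a pool over many donors, and development in vivo was not sampled. At each stage 2 sucrose gradients (A and B), loaded with cycloheximide-treated lysate, were cut into 10 fractions (F1 to F10, light to heavy), and 3 transcriptomes (A, B and C) were made from unfractionated pools. The study assigned F1 and F2 to free RNA, F3 to F5 to monosomes, F6 and F7 to an intermediate zone and F8 to F10 to polysomes. For each gradient F8 to F10 were added up to 1 polysome pool, giving 12 pools beside 18 transcriptomes. The series text calls the gradients and transcriptomes biological duplicates and triplicates.

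The 120 fraction libraries held 1229382 to 17342859 counts, the polysome pools 22543733 to 39380640 and the transcriptomes 3269386 to 11812567. No pair of same-group libraries was identical (0 of 78). Oocyte markers summed to 13747 to 71577 CPM, counts scaled to a fixed library total, in GV, MII and 2-cell groups and to 28.98 to 807 CPM in morula and blastocyst groups, and trophectoderm markers rose to 5087 to 16853 CPM at the blastocyst stage, so the stage labels and the marker genes went together. A pair of heavy fractions stood apart from the rest of their stage. MII F10 of gradient B had a mean correlation of 0.694 with the other heavy fractions of MII oocytes, which had 0.866 to 0.874, and morula F9 of gradient A had 0.676 against 0.779 to 0.814. Results that changed without these libraries are given with both values. The heavy fractions of 8-cell embryos were all about as low, at 0.657 to 0.751. At that stage 7669 to 8022 genes were detected in the heavy fractions of gradient A and 9863 to 11328 in those of gradient B. Levels below are CPM with TMM scaling factors. Genes were not compared with each other by level, since lengths were not used here. In these pools, fewer cells of a type and less RNA per cell cannot be told apart.

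The first comparison asked which of the genes had a larger share of polysome reads than of transcriptome reads at each stage. IGFBP2 was called higher in the polysomes at all 6 stages, IGFBP3 at the first 5, and IGF1R and IGF2R at 4 and 4 stages. A gene was called when edgeR's quasi-likelihood test gave a Benjamini-Hochberg adjusted p below 0.05 over all genes. At GV 3 of the 8 tested genes were called, all higher in polysomes, where 39.8% of all genes were called. At MII 4 were called higher (background 57.5%), at the 2-cell stage 4 (background 51%), at the 8-cell stage 4 (background 59.1%) and at the morula stage 6 (background 51.7%). At the blastocyst stage 2 were called higher and 1 lower (background 40.1%). Across stages and genes, IRS2 with its 6 untested ones included, 23 of 54 combinations were called higher and 1 lower. The share of all genes called higher alone was 22.2% at GV, 30.8% at MII, 29.1% at the 2-cell stage, 28.0% at the 8-cell stage, 26.5% at the morula stage and 20.02% at the blastocyst stage. The count of called genes was thus near the background in most stages, while the direction was almost always upward.

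The upward direction was not particular to polysomes. With the monosome fractions F3 to F5 summed in place of F8 to F10, a comparison chosen after seeing the data, 22 combinations were higher and 4 lower. Of all 14612 genes, 2606 to 5040 were then higher and 2607 to 5371 lower per stage. With F1 and F2 the counts were 17 and 2, beside 1789 to 4801 and 1780 to 4993 of all genes. The median of all genes also lay above 0 at GV, MII and the 2-cell stage. It was 0.42, 0.54 and 0.66 with F3 to F5 and 0.18, 0.29 and 0.56 with F1 and F2. Gradient fractions and transcriptomes were different kinds of library, so ribosome load and library kind cannot be told apart in the comparison with the transcriptome. For the genes chosen by name, values for the lighter fractions are therefore given beside many of the polysome values. They are not given for the surrounding genes described further below, to which the same limit applies.

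The second set of comparisons asked how the genes changed between consecutive stages, with a call at an adjusted p below 0.05 and a fold change above 2 (same test). These comparisons share samples: the later stage of each is the earlier stage of the next. In the transcriptomes none of the 8 genes was called from GV to MII (background 17.1%), although 3 had an unadjusted p below 0.05 and DESeq2 called 3 and the likelihood ratio test 1. From MII to the 2-cell stage 2 fell and none rose (background 12%). From the 2-cell to the 8-cell stage 1 rose and 3 fell (background 50.1%), from 8-cell to morula 1 rose and 2 fell (background 14.4%), and from morula to blastocyst 3 rose (background 21.6%). In the polysomes 1 gene rose from GV to MII (background 5.37%). None was called from MII to the 2-cell stage (background 8.51%), with 2 at an unadjusted p below 0.05, 0 by DESeq2 and 1 by the likelihood ratio test. From the 2-cell to the 8-cell stage 2 rose and 2 fell in polysomes (background 46.2%), from 8-cell to morula 1 rose and 1 fell (background 36.2%), and from morula to blastocyst 1 fell (background 13.9%).

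The change of the polysome-to-transcriptome ratio from one stage to the next was also tested. From GV to MII no gene was called (background 10.7%), with 0 at an unadjusted p below 0.05, 0 by DESeq2 and 0 by the likelihood ratio test. From MII to the 2-cell stage none was called either (background 1.81%), with 1 at an unadjusted p below 0.05 and 0 by DESeq2 and by the likelihood ratio test. One gene was called at each later step: INSR from the 2-cell to the 8-cell stage (background 12.2%), IRS1 from 8-cell to morula (background 12.5%) and IGFBP7 from morula to blastocyst (background 12.3%). All 3 calls involved a group with few or no reads.

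**Figure D1:**
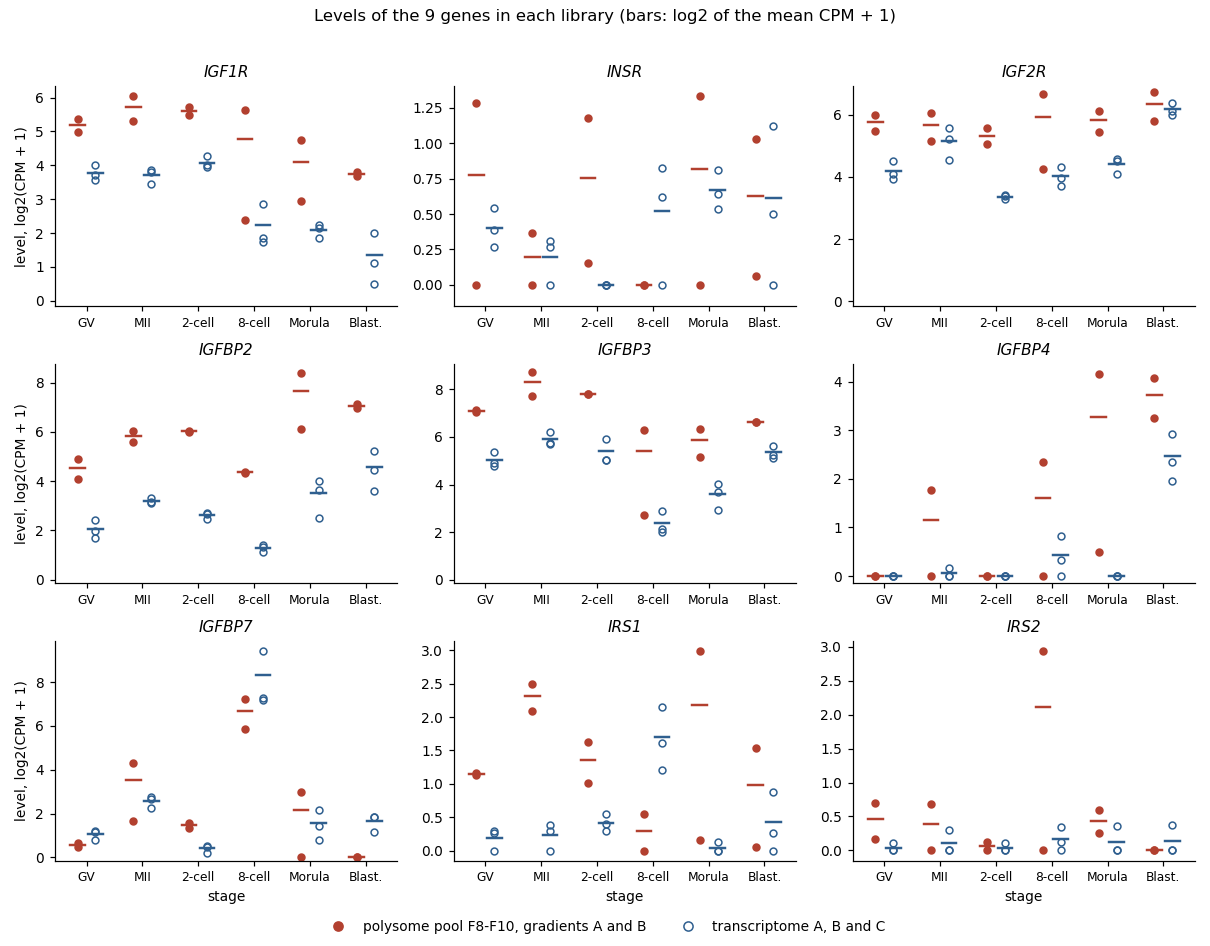
Levels of the 9 genes in polysome pools (filled red, gradients A and B) and transcriptomes (open blue, A to C) at the 6 stages, as log2(CPM + 1), with bars at the log2 of the mean CPM + 1. IGFBP2 pools lay above all transcriptomes at every stage, and IGFBP7 was highest in the 8-cell transcriptomes (144 to 677 CPM).

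IGF1R, the type 1 receptor that carries most of the growth signal of IGF1 and IGF2, was most abundant in both assays up to the 2-cell stage. Polysome pools A and B measured 40.4 and 30.6 CPM at GV, 65.3 and 38.6 at MII and 52.0 and 43.9 at the 2-cell stage. Transcriptomes A, B and C measured 15.1, 11.996 and 10.7 at GV, 9.96, 12.9 and 13.6 at MII and 18.4, 14.3 and 15.1 at the 2-cell stage. Pools and transcriptomes did not overlap at these stages. At the 8-cell stage the pools split, at 4.22 and 48.3 CPM, around transcriptomes of 6.25, 2.60 and 2.35. Morula pools were 6.65 and 25.8 against 3.73, 3.40 and 2.59, and blastocyst pools 11.9 and 13.1 against 1.18, 0.415 and 3.003. Only the 8-cell groups overlapped. By mean, the pools ranked MII (52.0), 2-cell (47.9), GV (35.5), 8-cell (26.2), morula (16.2) and blastocyst (12.5), and the only neighbours whose ranges did not overlap were the 2-cell and GV stages. The transcriptomes ranked 2-cell (15.9), GV (12.6), MII (12.1), 8-cell (3.73), morula (3.24) and blastocyst (1.53), with a gap only between MII and the 8-cell stage.

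The polysome excess of IGF1R on the log2 scale was 2.10 ± 0.70 (SE) at MII (edgeR adjusted p = 0.0134), 2.81 ± 0.72 at the 8-cell stage (adjusted p = 0.0019), 2.32 ± 0.71 at the morula stage (adjusted p = 0.00899) and 3.0 ± 0.76 at the blastocyst stage (adjusted p = 0.00313). At GV (1.49 ± 0.69, adjusted p = 0.0907) and the 2-cell stage (1.59 ± 0.69, adjusted p = 0.0592) it did not pass. The 8-cell value rested on gradient B and was 0.18 (adjusted p = 0.844) without it, and 1.01 (adjusted p = 0.185) with only F9 and F10 as polysomes. The morula value was 1.03 (adjusted p = 0.286) without gradient B, and the MII value was 1.62 (adjusted p = 0.115) without gradient A. With the monosome fractions in place of polysomes, the differences were 2.50 at GV, 2.51 at MII, 2.55 at the 2-cell stage, 4.66 at the 8-cell stage and 2.13 at the morula stage. With F1 and F2 they were 2.56, 1.89, 2.35, 4.14 and 4.09 in the same order. At the blastocyst stage the monosome difference was -0.28 (adjusted p = 0.797), so in this stage the excess was in the heavy fractions. Between stages, the receptor fell by 2.09 on the log2 scale (SE 0.66, adjusted p = 0.011) in the transcriptomes from the 2-cell to the 8-cell stage, or by 1.85 (adjusted p = 0.0516) without 8-cell transcriptome C. In the polysomes the same step gave -0.87 (adjusted p = 0.372).

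INSR, the insulin receptor, was close to the detection limit in the pools and transcriptomes, with 0 to 53 counts. Pools A and B measured 0 and 1.43 CPM at GV, 0.288 and 0 at MII, 0.111 and 1.26 at the 2-cell stage, 0 and 0 at the 8-cell stage, 0 and 1.52 at the morula stage and 1.04 and 0.0426 at the blastocyst stage. Transcriptomes A, B and C measured 0.455, 0.308 and 0.203 at GV, 0, 0.203 and 0.238 at MII, 0, 0 and 0 at the 2-cell stage, 0.771, 0.538 and 0 at the 8-cell stage, 0.560, 0.447 and 0.754 at the morula stage and 1.18, 0.415 and 0 at the blastocyst stage. The gradients of a stage disagreed in most stages, one holding reads and the other nearly none. Pools and transcriptomes were apart only at the 2-cell stage, although pool A lay below the transcriptome floor of 3 counts per library (0.231 CPM). The mean of the 2-cell pools was at least 2.97-fold above that floor, and the gene was called higher in polysomes (edgeR adjusted p = 0.0453). That call was lost without pool B (adjusted p = 0.280), without any 1 of the 3 transcriptomes (adjusted p = 0.0974 to 0.1002) and with DESeq2 (adjusted p = 0.0656). The 2-cell difference was also called with F3 to F5 (7.23 on the log2 scale, edgeR adjusted p = 0.0124) and with F1 and F2 (6.20, adjusted p = 0.00775) in place of polysomes. The 8-cell pools were at least 4.27-fold lower than the mean of the 8-cell transcriptomes, which was not called by edgeR's quasi-likelihood test (adjusted p = 0.0577). It was called by the likelihood ratio test (adjusted p = 0.0222), by DESeq2 (adjusted p = 0.0354) and with F6 to F10 as polysomes (adjusted p = 0.0121). The ratio change between these stages was called (-12.64 on the log2 scale, adjusted p = 0.0353), but with 0 reads in the 2-cell transcriptomes and in the 8-cell pools its size is set by the fit. It was lost without 8 of the 10 libraries of these stages taken 1 at a time (adjusted p = 0.0507 to 0.123).

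IGF2R, the cation-independent mannose 6-phosphate receptor, binds IGF2 and carries it to lysosomes instead of signalling. It was detected in every pool and transcriptome. Pools A and B measured 43.1 and 62.8 CPM at GV against transcriptomes of 21.6, 14.3 and 16.2, and 65.8 and 34.6 at MII against 46.0, 36.2 and 22.4. The 2-cell pools were 46.2 and 32.0 against 8.82, 9.59 and 9.55, and the 8-cell pools 18.002 and 100.6 against 18.8, 12.1 and 14.7. Morula pools were 42.3 and 68.4 against 21.7, 22.9 and 16.1, and blastocyst pools 106 and 55.0 against 62.9, 68.8 and 82.1. The assays were apart at GV, 2-cell embryos and morulae and overlapped in the other stages. The transcriptome ranked blastocyst (71.3), MII (34.9), morula (20.2), GV (17.4), 8-cell (15.2) and 2-cell (9.32), with gaps below the blastocyst and above the 2-cell stage. Pool means ran from 39.1 to 80.3 and every neighbouring pair of stages overlapped.

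IGF2R was higher in polysomes by 1.61 ± 0.49 on the log2 scale at GV (edgeR adjusted p = 0.0116), 2.07 ± 0.50 at the 2-cell stage (adjusted p = 0.00129), 1.97 ± 0.49 at the 8-cell stage (adjusted p = 0.00171) and 1.45 ± 0.49 at the morula stage (adjusted p = 0.0168). Differences of 0.53 at MII (adjusted p = 0.370) and 0.17 at the blastocyst stage (adjusted p = 0.818) did not pass. As for IGF1R, the 8-cell value came from gradient B and was 0.25 (adjusted p = 0.667) without it. The GV call was lost without pool B (1.31, adjusted p = 0.109) and with only F9 and F10 as polysomes (1.39, adjusted p = 0.0728). The morula call was lost without pool B (1.06, adjusted p = 0.134), without transcriptome C (1.29, adjusted p = 0.0654) and with library totals in place of TMM (1.08, adjusted p = 0.0821). Monosome differences were 3.36 at GV, 2.18 at the 2-cell stage, 2.90 at the 8-cell stage and 0.89 at the morula stage. The transcript fell by 1.90 (SE 0.46, adjusted p = 0.00666) from MII to the 2-cell stage and rose by 1.82 (SE 0.46, adjusted p = 0.00527) from morula to blastocyst, while no change of IGF2R between stages was called in polysomes.

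**Figure D2:**
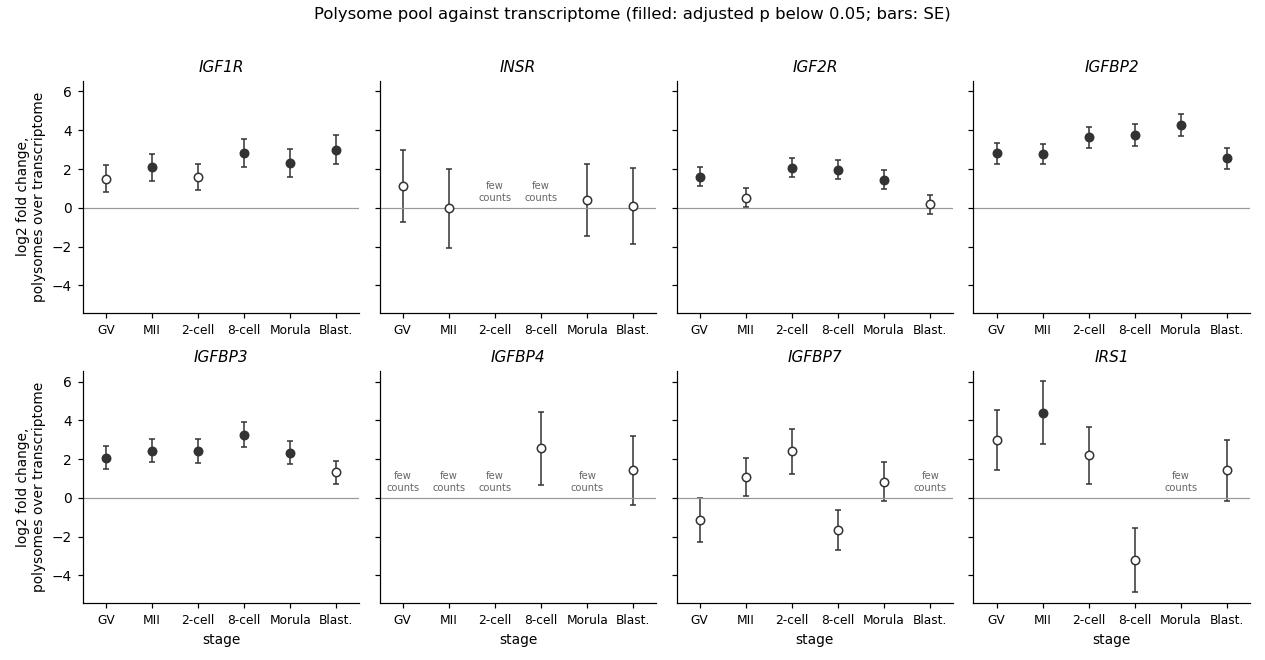
Difference between polysome pools and transcriptomes (log2 fold change ± SE, 2 pools against 3 transcriptomes) for the 8 genes in the model at each stage. Filled points had an adjusted p below 0.05, and "few counts" marks groups with at most 3 counts, for which no fold is drawn. IGFBP2 lay between 2.55 and 4.28 at all stages.

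IGFBP2, a secreted binding protein of both growth factors, was higher in polysomes at every stage. Pools A and B measured 15.9 and 29.02 CPM at GV against transcriptomes of 4.33, 2.26 and 2.94, and 65.2 and 47.3 at MII against 8.93, 8.01 and 7.73. The 2-cell pools were 62.7 and 65.6 against 4.56, 5.51 and 5.41, and the 8-cell pools 19.2 and 19.8 against 1.199, 1.52 and 1.65. Morula pools were 68.0 and 338 against 11.48, 15.2 and 4.63, and blastocyst pools 125 and 139 against 36.5, 10.99 and 20.6. Every pool lay above every transcriptome of its stage. The log2 difference was 2.81 ± 0.54 at GV (edgeR adjusted p = 0.000205), 2.77 ± 0.54 at MII (adjusted p = 0.000118), 3.63 ± 0.55 at the 2-cell stage (adjusted p = 6.93e-06), 3.73 ± 0.57 at the 8-cell stage (adjusted p = 7.21e-06), 4.28 ± 0.56 at the morula stage (adjusted p = 1.35e-06) and 2.55 ± 0.53 at the blastocyst stage (adjusted p = 0.000536). All 6 calls held without any 1 library, and the morula difference was 2.70 (adjusted p = 0.00018) without pool B. The monosome differences were 2.36, 2.15, 2.39, 3.85 and 1.98 from GV oocytes to morulae in stage order, all called. With F1 and F2 the differences were 3.21, 2.48, 3.15, 4.18 and 2.37 in the same order, also all called. At the blastocyst stage they were 0.55 (adjusted p = 0.356) with F3 to F5 and 0.63 (adjusted p = 0.448) with F1 and F2, against the called excess in F8 to F10.

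IGFBP2 dipped at the 8-cell stage in both assays. The transcriptome fell by 1.82 (SE 0.52, edgeR adjusted p = 0.00546) from the 2-cell stage and rose by 2.84 (SE 0.53, adjusted p = 0.00069) to the morula. The polysomes fell by 1.72 (SE 0.59, adjusted p = 0.0209), a call lost without any 1 of the 4 pools (adjusted p = 0.0517 to 0.0687), and rose by 3.38 (SE 0.63, adjusted p = 0.000288), or by 1.80 (adjusted p = 0.0155) without morula pool B. By mean the pools ranked morula (203), blastocyst (132), 2-cell (64.2), MII (56.2), GV (22.5) and 8-cell (19.5). Morula and blastocyst pools overlapped, as did 2-cell and MII pools and GV and 8-cell pools, and the ranges were separate between these pairs. The transcriptomes ranked blastocyst (22.7), morula (10.4), MII (8.22), 2-cell (5.16), GV (3.17) and 8-cell (1.46), with overlap only among the first 3.

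IGFBP3, the main carrier of the growth factors in serum, was called higher in polysomes up to the morula. Pools A and B measured 137 and 132 CPM at GV against transcriptomes of 40.1, 26.7 and 29.2, 207 and 425 at MII against 50.4, 72.7 and 52.2, and 223 and 220 at the 2-cell stage against 32.1, 32.1 and 59.6. At the 8-cell stage the pools again split, at 5.62 and 76.4, and overlapped transcriptomes of 6.43, 2.96 and 3.39. Morula pools were 34.9 and 79.2 against 11.8, 15.5 and 6.57, and blastocyst pools 98.5 and 99.1 against 33.8, 36.9 and 48.5. The 8-cell stage was the only one with overlap. The log2 difference was 2.07 ± 0.60 at GV (edgeR adjusted p = 0.00794), 2.43 ± 0.60 at MII (adjusted p = 0.00146), 2.43 ± 0.60 at the 2-cell stage (adjusted p = 0.00179), 3.27 ± 0.63 at the 8-cell stage (adjusted p = 0.000126) and 2.34 ± 0.61 at the morula stage (adjusted p = 0.00271). The blastocyst difference was 1.31 ± 0.60 (adjusted p = 0.0827). It was called in a fit of the compared groups only (1.36, edgeR adjusted p = 0.000867). It was also called with F6 to F10 as polysomes (1.28, adjusted p = 0.0448). Without gradient B the 8-cell value was 0.40 (adjusted p = 0.517) and the morula value 1.63 (adjusted p = 0.0569). With only F9 and F10 as polysomes the GV value was 1.89 (adjusted p = 0.122) and the morula value 2.00 (adjusted p = 0.0789). Monosome differences for the 6 stages were 3.72, 1.77, 3.03, 5.02, 2.27 and 1.36, all called. With F1 and F2 they were 1.19, 0.20, 1.67, 5.23, 1.58 and 0.93, called at the 2-cell, 8-cell and morula stages.

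Like IGFBP2, IGFBP3 fell from the 2-cell to the 8-cell stage, by 3.27 (SE 0.60, edgeR adjusted p = 8.79e-05) in the transcriptomes and by 2.43 (SE 0.70, adjusted p = 0.00642) in the polysomes. The polysome level fell by 1.54 (adjusted p = 0.0360) without 8-cell pool A and fell by 5.30 (adjusted p = 2.99e-06) without 8-cell pool B. It rose by 1.82 (SE 0.57, adjusted p = 0.0215) in the transcriptomes from morula to blastocyst. This call was lost without morula transcriptome A (adjusted p = 0.0583), morula transcriptome C (adjusted p = 0.106) or blastocyst transcriptome C (adjusted p = 0.0709). Pool means ranked MII (316), 2-cell (222), GV (135), blastocyst (98.8), morula (57.0) and 8-cell (41.0), and only MII with 2-cell and morula with 8-cell overlapped. The transcriptomes ranked MII (58.4), 2-cell (41.3), blastocyst (39.7), GV (32.0), morula (11.3) and 8-cell (4.26), with gaps on either side of the morula.

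IGFBP4, a binding protein known to inhibit IGF action, was at 0 in the pools and transcriptomes of GV oocytes and 2-cell embryos. MII pools A and B measured 0 and 2.43 CPM and transcriptomes 0.114, 0 and 0. The 8-cell pools were 0 and 4.12 and the transcriptomes 0.257, 0 and 0.783. In both stages the pool reads came from 1 library, F9 of gradient B. Morula pools were 16.9 and 0.403 with no read in the transcriptomes, and blastocyst pools were 15.9 and 8.55 against transcriptomes of 4.12, 2.90 and 6.61. The blastocyst was the only stage with the gene in every pool and transcriptome. Polysomes were at least 29.8-fold higher than the transcriptome floor at the morula stage (edgeR adjusted p = 0.00868), a call lost without pool A (adjusted p = 0.140). With F3 to F5 in place of polysomes the morula difference was 9.88 on the log2 scale (edgeR adjusted p = 0.00289), and with F1 and F2 it was 0. The transcriptomes rose at least 15.6-fold from morula to blastocyst (adjusted p = 0.0279). For that rise the adjusted p was 0.0783 to 0.0814 without any 1 of the morula transcriptomes and 0.0596 without blastocyst transcriptome C. The polysome rise from the 2-cell to the 8-cell stage, at least 23.5-fold (adjusted p = 0.0307), lay wholly in gradient B and was lost without it or without either 2-cell pool (adjusted p = 0.121 to 0.126).

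IGFBP7, a secreted protein that binds the growth factors with low affinity and is also made by fibroblasts and endothelium, had the largest stage change of the 8 genes with reads in both groups. GV pools measured 0.378 and 0.594 CPM and GV transcriptomes 1.21, 0.718 and 1.32. MII pools were 2.20 and 18.9 against 3.78, 5.27 and 5.83, and 2-cell pools 1.56 and 2.00 against 0.380, 0.1598 and 0.451. At the 8-cell stage pools were 56.4 and 149 and transcriptomes 677, 144 and 153. Morula pools dropped to 0 and 6.99 with transcriptomes of 1.68, 3.49 and 0.754, and blastocyst pools held no read while the transcriptomes were 2.65, 1.24 and 2.60. The 8-cell values lay above those of every other stage in both assays.

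From the 2-cell to the 8-cell stage IGFBP7 rose by 9.90 ± 1.32 on the log2 scale in the transcriptomes (edgeR adjusted p = 1.66e-06) and by 5.85 ± 1.32 in the polysomes (adjusted p = 0.00103). From 8-cell to morula it fell by 7.35 (SE 1.16, adjusted p = 0.000143) and by 4.86 (SE 1.25, adjusted p = 0.00455). In a fit of the compared groups only, the latter polysome change was -4.90 and was not called (edgeR adjusted p = 0.209). These 4 calls held without any 1 library. The second polysome value became -13.81 (adjusted p = 3.52e-05) without morula pool B, since the remaining pool had no read. The 8-cell difference between the assays was -1.66 ± 1.03 (adjusted p = 0.167) and ran from -2.53 to -0.53 as single libraries were left out. With the monosome fractions it was -6.85. In the transcriptomes IGFBP7 fell by 3.87 (SE 1.11, adjusted p = 0.0212) from MII to the 2-cell stage, with an adjusted p of 0.0529 without MII transcriptome C and of 0.0681 to 0.0896 without any 1 of the 2-cell transcriptomes. The polysome rise from GV to MII, 4.42 ± 1.26 (adjusted p = 0.0393), rested on the MII F10 library of gradient B that stood apart, which alone held 62.9 CPM. Without that library the change was 2.33 (adjusted p = 0.238). Without pool B it was 2.16 (adjusted p = 0.445), without GV pool A the adjusted p was 0.266 and without GV pool B it was 0.177. At the blastocyst stage the polysomes were at least 16.8-fold lower than the transcriptomes (adjusted p = 0.00388), and at least 27.1-fold lower than the morula polysomes (adjusted p = 0.00688), whose reads were all in gradient B. The morula to blastocyst call was lost without that pool, and without blastocyst pool B (adjusted p = 0.060).

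Markers of other cell types moved with IGFBP7 at some steps and not at others. Cumulus had been removed before lysis. The 14 fibroblast and stroma markers, all in the table, summed to 21.9 to 27.0 CPM in GV transcriptomes, 100.05 to 170.1 in MII, 26.1 to 37.1 in 2-cell, 2500 to 15698 in 8-cell, 1034 to 1916 in morula and 3739 to 4807 in blastocyst transcriptomes. In the 8-cell transcriptomes the sums were 15698, 2941 and 2500 for A, B and C, in which IGFBP7 was 677, 144 and 153, so library A was highest for both. LUM, a collagen-binding proteoglycan, measured 8104, 1690 and 1081 CPM there, and SPARC, a matrix protein, 4067, 909 and 861. COL1A1, a chain of type I collagen, measured 30.2, 6.63 and 8.78. None of the 14 was at 0 in the 8-cell transcriptomes and 6 were at 0 in GV transcriptomes. From the 2-cell to the 8-cell stage 12 of the 14 rose and 0 fell in the transcriptomes, and 9 rose and 1 fell in the polysomes. Over all genes, 26.6% rose and 23.5% fell in the transcriptomes, and 21.0% rose and 25.2% fell in the polysomes. From 8-cell to morula 1 rose and 7 fell in the transcriptomes (background 14.4%), and 2 rose and 6 fell in the polysomes (background 36.2%). In the transcriptomes FN1 rose at this step, and COL1A2, COL5A1, LUM, SPARC, POSTN, ACTA2 and TAGLN fell. From morula to blastocyst 1 of the 14, COL1A2, rose and 0 fell in the transcriptomes (background 21.6%). The blastocyst transcriptomes, at 3739 to 4807 CPM, had a higher sum of these markers than the 2-cell transcriptomes and than 8-cell transcriptomes B and C. The sum does not show which markers carried it. IGFBP7 was at 1.24 to 2.65 CPM in the blastocyst transcriptomes, against 144 and 153 in 8-cell transcriptomes B and C. In the pools the marker sums were 877 and 920 CPM at the blastocyst stage, with no IGFBP7 read, and 1396 and 1770 at the 8-cell stage. Cumulus and granulosa markers, of which 15 of 16 were in the model, summed to 1661, 380 and 440 CPM in the 8-cell transcriptomes. In the 2-cell transcriptomes they summed to 442 to 472 CPM. From the 2-cell to the 8-cell transcriptomes 9 of them rose and 2 fell, where 50.1% of all genes were called. In the 2-cell transcriptomes 3 of the 16 were at 0, namely INHA, AMH and FOXL2, and in the 8-cell transcriptomes 0 were. At MII the cumulus sum was 776 CPM in pool A and 1522 in pool B, the pool with the higher IGFBP7. The GV pools summed to 1114 and 1028 CPM, with IGFBP7 at only 0.378 and 0.594. The 2-cell pools summed to 882 and 1220 CPM, with IGFBP7 at 1.56 and 2.00. The part of other cells in the IGFBP7 result was not tested.

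**Figure D3:**
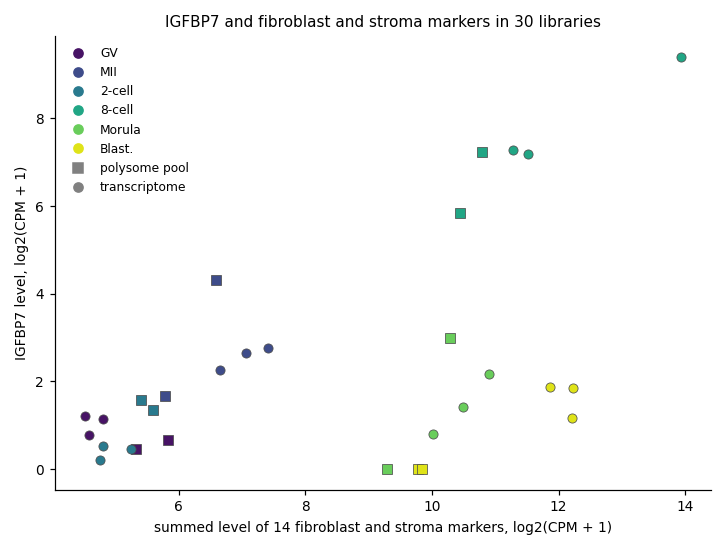
IGFBP7 against the summed CPM of the 14 fibroblast and stroma markers in the 30 libraries of the model, both as log2(CPM + 1), with squares for polysome pools and circles for transcriptomes, coloured by stage. The 8-cell libraries lie highest in IGFBP7, with transcriptome A (677 CPM of IGFBP7, marker sum 15698 CPM) highest on both axes. The blastocyst transcriptomes combine marker sums of 3739 to 4807 CPM with low IGFBP7. The blastocyst pools had marker sums of 877 and 920 CPM, below the 8-cell pools (1396 and 1770 CPM), and no IGFBP7 read.

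IRS1, an adaptor that links both receptors to PI3K, was a low-count gene in the pools and the transcriptomes. Pools A and B measured 1.24 and 1.19 CPM at GV, 3.28 and 4.65 at MII, 1.03 and 2.09 at the 2-cell stage, 0 and 0.461 at the 8-cell stage, 6.94 and 0.115 at the morula stage and 1.91 and 0.0426 at the blastocyst stage. Transcriptomes A, B and C measured 0.228, 0 and 0.203 at GV, 0.229, 0.304 and 0 at MII, 0.456, 0.320 and 0.226 at the 2-cell stage, 3.43, 2.06 and 1.30 at the 8-cell stage, 0.0933, 0 and 0 at the morula stage and 0, 0.829 and 0.200 at the blastocyst stage. The 8-cell stage was the only one with every transcriptome above both pools. At MII the polysomes were higher by 4.40 ± 1.61 on the log2 scale (edgeR adjusted p = 0.0228). The MII value was 3.43 (adjusted p = 0.0716) without F10 of gradient B, and the call was also lost without pool B (adjusted p = 0.0586), transcriptome A (adjusted p = 0.0557) or transcriptome C (adjusted p = 0.0817). At the morula stage, 148 counts in the pools stood against 1 count in the transcriptomes, a ratio of 83.1 with an exact 95% counting interval of 14.7 to 3305 (adjusted p = 0.0058). The morula call was lost without pool A (1.63, adjusted p = 0.515) and with only F9 and F10 as polysomes (3.14, adjusted p = 0.195). With F3 to F5 in place of polysomes the differences were 1.80 at MII (edgeR adjusted p = 0.159) and 1.45 at the morula stage (adjusted p = 0.422). With F1 and F2 they were -4.11 (adjusted p = 0.0545) and 6.73 (adjusted p = 0.000586). In the transcriptomes 8-cell embryos exceeded morulae by a ratio of 70.9 (12.3 to 2834, adjusted p = 0.0277). The adjusted p was 0.0656 without 8-cell transcriptome A and 0.0546 to 0.110 without any 1 of the morula transcriptomes. The polysome-to-transcriptome ratio rose by 9.73 ± 2.59 from 8-cell to morula (edgeR adjusted p = 0.0153). It rose by 4.86 without morula pool A and by 14.80 without 8-cell pool B.

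IRS1 was nonetheless present in 8-cell gradients outside the polysomes, at 48.8 CPM in F4 of gradient A and 13.9 to 22.3 CPM in F2 to F5 of gradient B. With F3 to F5 in place of F8 to F10, its 8-cell difference from the transcriptome was 2.95 (edgeR adjusted p = 0.00893). IRS2, a related adaptor, had 0 to 245 counts per pool or transcriptome. It was at most 0.621 CPM in every pool except 8-cell pool B, with 6.64 CPM, and at most 0.294 CPM in the transcriptomes. The reads of 8-cell pool B came from F8 of that gradient, with 23.4 CPM. No test was made for IRS2 in the model.

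The single fractions showed where along the gradient each transcript lay, on CPM scaled over all fractions and transcriptomes together. A rise or fall from F3 to F10 was called from Spearman's coefficient with the fraction number over both gradients (16 libraries, two-sided permutation test, adjusted over all genes with a mean of at least 1 CPM). Fractions of a gradient are not independent replicates. At GV 1 of 5 tested members rose and 2 fell (background 36.8%). At MII 0 of 6 were called (background 19.6%), with 0 at an unadjusted p below 0.05. At the 2-cell stage 1 of 6 rose and 1 fell (background 20.6%), and at the 8-cell stage 1 of 7 rose (background 15.1%). At the morula stage 0 of 7 were called (background 1.71%), with 1 at an unadjusted p below 0.05, and at the blastocyst stage 2 of 6 rose (background 7.96%).

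IGFBP2 rose toward the heavy end in blastocysts and 2-cell embryos. At the blastocyst stage, gradient A measured 46.0, 21.2, 20.8, 31.0, 46.0, 57.0, 84.9, 124, 107 and 113 CPM from F1 to F10, and gradient B 28.7, 21.2, 11.4, 20.7, 55.5, 88.4, 95.3, 149.6, 122 and 108. Both gradients were lowest in F3 and highest in F8. Spearman's coefficient was 0.90 (permutation test, adjusted p = 0.00211, with the raw p the smallest that the permutations can give), 0.84 at the 2-cell stage (adjusted p = 0.00437) and 0.60 at GV (adjusted p = 0.0476). The GV call was lost without the filter on low values (adjusted p = 0.0573), with ranks within each gradient (adjusted p = 0.0871), over F1 to F10 (coefficient 0.0996, adjusted p = 0.786) and without gradient B (0.21, adjusted p = 0.759). IGF1R at the blastocyst stage measured 1.96, 0, 0, 0, 0.80, 0, 7.33, 15.96, 10.49 and 5.70 CPM in gradient A and 0, 1.29, 0, 4.01, 2.29, 0, 9.03, 13.9, 12.7 and 8.97 in gradient B. Nearly all of its reads lay in F7 to F10, with a coefficient of 0.74 (permutation test, adjusted p = 0.03003). At GV IGF1R fell along the fractions instead (coefficient -0.66, permutation test, adjusted p = 0.0229), a call lost on CPM without TMM (coefficient -0.46, adjusted p = 0.158).

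IGFBP3 fell along the fractions where IGFBP2 rose, in GV oocytes and 2-cell embryos. At GV gradient A measured 57.8, 58.4, 310, 301, 238, 126, 127, 126, 131 and 131 CPM from F1 to F10, and gradient B 44.9, 62.9, 318, 359, 354, 241, 142, 141, 111 and 108. Both peaked in the monosome fractions and levelled off in F7 to F10 above F1 and F2. Spearman's coefficient from F3 to F10 was -0.81 at GV (permutation test, adjusted p = 0.00212) and -0.66 at the 2-cell stage (adjusted p = 0.0393), and with F1 and F2 included these were 0.0755 (adjusted p = 0.842) and -0.0906 (adjusted p = 0.856). IGFBP7 at the 8-cell stage measured 0, 0, 0, 0, 0, 1.25, 53.5, 9.09, 119 and 37.0 CPM in gradient A and 69.0, 0, 5.02, 3.94, 6.32, 43.6, 63.2, 153, 136 and 193 in gradient B, with a coefficient of 0.80 (permutation test, adjusted p = 0.00767). The heavy position was shared by both gradients and only gradient B had reads in F1. IGF1R at this stage measured 26.0, 31.5, 54.7, 14.8, 9.39, 2.85, 6.11 and 3.92 CPM from F3 to F10 of gradient A and 113, 82.2, 222, 139, 308, 144, 19.4 and 1.75 in gradient B, so gradient B lay above gradient A in each of these fractions except F10. With gradient B alone 3 rising trends and 1 falling trend were called, and with gradient A alone 0. Over all genes, gradient A alone gave 1100 calls at GV, 546 at MII, 13 at the blastocyst stage and 0 at the others. Gradient B alone gave 1916 at GV, 102 at MII, 1196 at the 2-cell stage, 278 at the 8-cell stage and 0 later. Where no gene was called, the absence of member calls says nothing about the members.

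**Figure D4:**
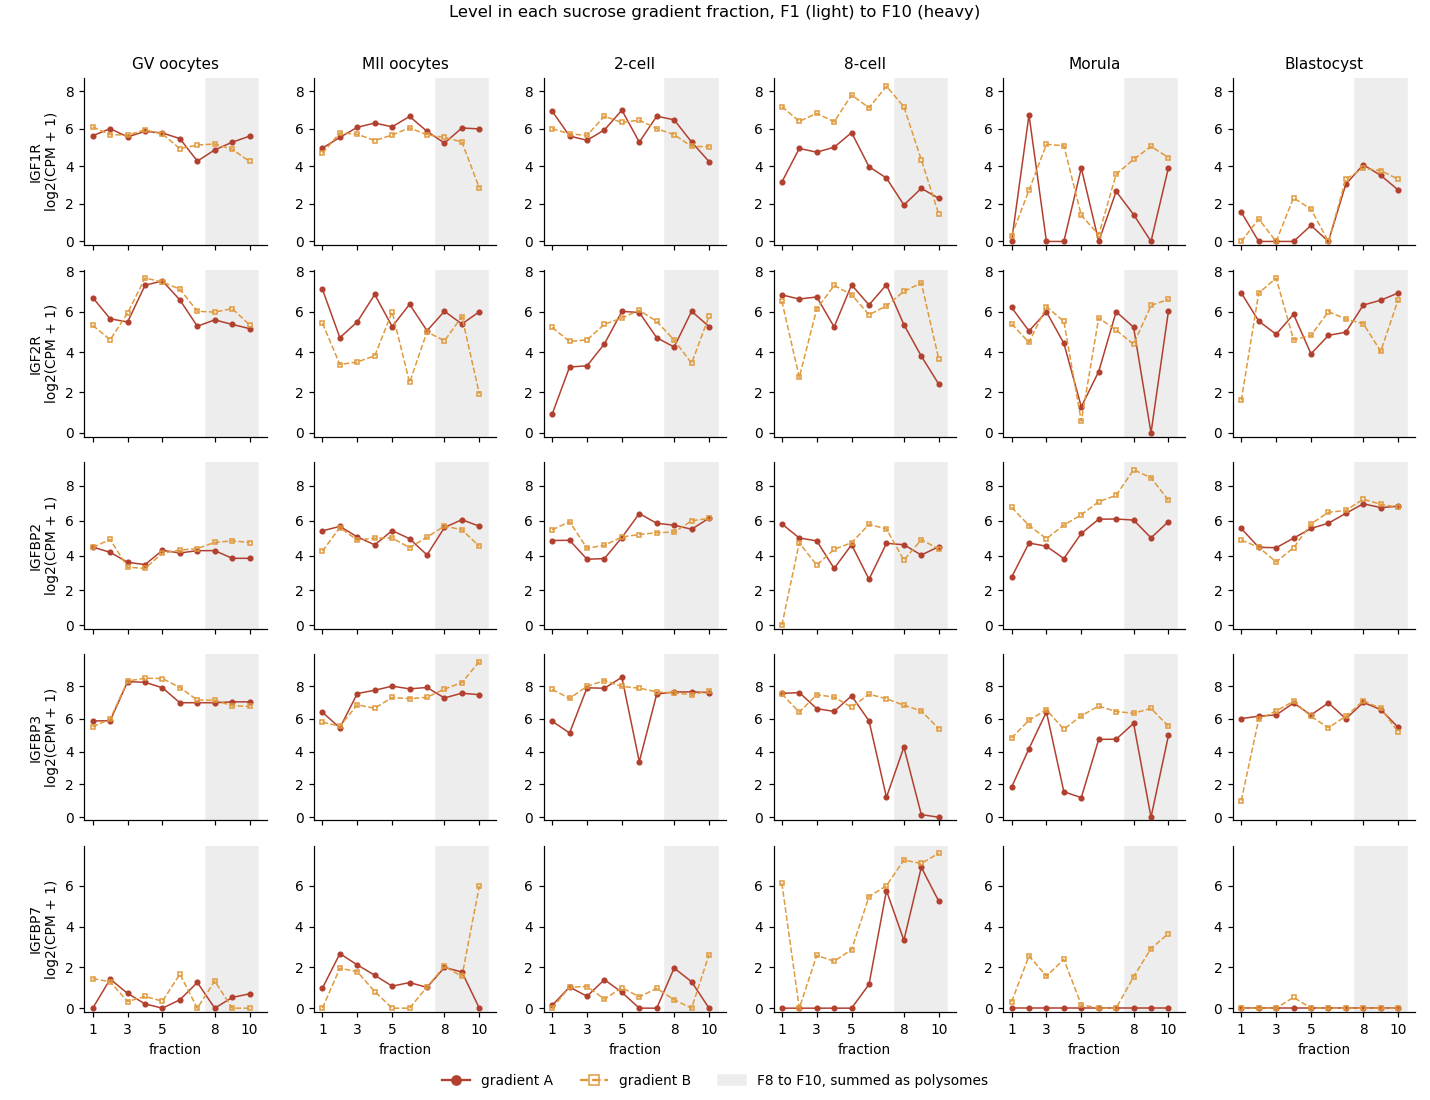
Levels of IGF1R, IGF2R, IGFBP2, IGFBP3 and IGFBP7 along fractions F1 to F10 of gradients A and B at the 6 stages, as log2(CPM + 1), with F8 to F10 shaded. At the blastocyst stage IGFBP2 rose from 11.4 to 31.0 CPM in F3 and F4 to 107 to 149.6 CPM in F8 to F10, and at GV IGFBP3 was highest in F3 to F5.

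The genes around the receptors were described with a list of 64 ligands, further binding proteins, adaptors and downstream components, of which 62 were in the model. In polysomes against transcriptome, 22 were higher and 8 lower at GV, 22 and 14 at MII, 22 and 12 at the 2-cell stage, 28 and 16 at the 8-cell stage, 27 and 9 at the morula stage and 21 and 9 at the blastocyst stage, beside 39.8%, 57.5%, 51%, 59.1%, 51.7% and 40.1% of all genes called. The list median was 0.39, 0.46, 1.18, 1.10, 1.83 and 0.23 in the same order, where the median of all genes was between -0.26 and 0.18. In the transcriptomes 8 of the list rose and 6 fell from GV to MII, 8 and 4 from MII to 2-cell, 16 and 14 from 2-cell to 8-cell, 5 and 7 from 8-cell to morula and 7 and 11 from morula to blastocyst, where 17.1%, 12%, 50.1%, 14.4% and 21.6% of all genes were called. In the polysomes these counts were 0 and 1, 2 and 2, 17 and 11, 12 and 9, and 1 and 7, beside 5.37%, 8.51%, 46.2%, 36.2% and 13.9% of all genes.

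IGF1 had at most 11 transcriptome counts per stage, INS at most 2, and IGF2, the fetal growth factor, was at 0 in GV and MII oocytes and morulae. IGF2 reached 2.63 ± 1.59 CPM (SD, n = 3) in the 8-cell transcriptomes and 2.32 ± 3.28 (SD, n = 2) in the 8-cell polysomes, and it was the list's largest fall from 8-cell to morula, to 0 reads (edgeR adjusted p = 0.0495). INSL3, a relaxin family hormone, measured 46.6 ± 15.6 CPM (SD, n = 2) in 8-cell polysomes and 11.4 ± 4.22 (SD, n = 3) in the transcriptomes, and was the largest rise of the list from GV to MII in the transcriptomes (log2 change 7.44 ± 1.88, adjusted p = 0.00697). IGFBP6, another binding protein, rose from 0.0251 to 13.5 CPM in the transcriptomes from 2-cell to 8-cell (adjusted p = 1.3e-05), starting from 1 count. STC1, which with STC2 restrains the proteases that cut binding proteins, fell by 5.03 (SE 0.83, adjusted p = 0.000191) from MII (205 CPM) to 2-cell (6.26 CPM).

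Among the components that carry or brake the signal, SHC1, SH2B2, AKT1, AKT2, INPPL1, SOCS1, TSC2, RPTOR, MLST8, RPS6KB2, EIF4EBP1, SLC2A8 and BAD were called higher in polysomes at all 6 stages, and SOS1, PTPN2 and RICTOR lower at all 6. Of all genes, 20.02% to 30.8% were called higher and 17.7% to 31.0% lower at single stages. The share of all genes called at all 6 stages is not given here, so these names are not read as a trait of the list. SLC2A8, a glucose transporter of intracellular membranes, had the largest polysome excess of the list at MII (7.77 ± 0.45 on the log2 scale, edgeR adjusted p = 2.02e-12) and at the 2-cell stage (6.20 ± 0.41, adjusted p = 9.53e-11). It measured 359 CPM in MII polysomes and 1.64 in MII transcriptomes, down from 20.7 in GV transcriptomes, a fall by 3.66 (SE 0.38, adjusted p = 1.54e-07). SOCS1, a suppressor of cytokine and insulin receptor signalling, led at the 8-cell stage (7.86 ± 0.59, adjusted p = 2.28e-10) at 76.4 against 0.322 CPM, and at the blastocyst stage at 76.7 against 0.0667 CPM. In the transcriptomes SOCS1 rose by 2.70 ± 0.52 from 8-cell to morula (adjusted p = 0.000871) and fell by 4.70 (SE 0.78, adjusted p = 9.03e-05) to the blastocyst. SOCS3, a relative, had no read in the GV transcriptomes and 0.429 to 1.13 CPM in GV polysomes.

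In the downward direction SOS1, a Ras exchange factor, led at the 2-cell stage (-6.79 ± 0.91, edgeR adjusted p = 1.29e-06) with 0.379 against 42.8 CPM. GRB14, an adaptor that inhibits the insulin receptor, had no read in MII polysomes and 1.78 to 1.95 CPM in the MII transcriptomes, and GAB1, a docking adaptor, none in 8-cell polysomes and 3.49 to 17.8 CPM in the transcriptomes. PIK3R3, a regulatory subunit of PI3K, was at 0 in morula polysomes and at 2.95 to 7.002 CPM in the transcriptomes, and PAPPA2, a protease of binding proteins, was at 0 in blastocyst polysomes and at 0.415 to 0.601 CPM in the transcriptomes. PAPPA, the related protease, led the morula excess with 0 and 6.84 CPM in the pools and 0 in the transcriptomes. Between transcriptomes GRB10, an adaptor that inhibits both receptors, rose by 2.55 ± 0.65 from MII to 2-cell (adjusted p = 0.00903), PIK3CD, a catalytic subunit of PI3K, fell by 4.87 (SE 0.67, adjusted p = 2.23e-06) from 2-cell to 8-cell, and SHC1, an adaptor to Ras, rose by 2.46 ± 0.37 from morula to blastocyst (adjusted p = 3.23e-05).

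The genes whose levels were most like each member over the 30 libraries were listed by Pearson's r of log2(CPM + 1), as a description, since libraries of a stage share their source. IGF1R was most like AMOTL1 (0.934), CDK5 (0.912) and C1H3orf70 (0.906). IGF2R was most like SLC52A2 (0.872), SCNN1A (0.840) and NLRX1 (0.828), and INSR, with few reads, like BPI (0.694), TMEM184A (0.685) and SPAG8 (0.639). IGFBP2 was most like SHISA5 (0.938), TMEM189 (0.935) and TMEM9 (0.932), and IGFBP3 like XRCC1 (0.924), TMTC4 (0.913) and MACROD1 (0.901). IGFBP4 was most like APBB1 (0.882), VOPP1 (0.872) and PPM1F (0.856). IGFBP7 was most like IFI6 (0.935), VIM (0.935), a mesenchymal intermediate filament, and MAP1LC3C (0.934). IRS1 was most like PHLDB3 (0.756), GSTM1 (0.742) and DIP2C (0.719). Among the members, IGF1R with IGFBP3 (0.760) and IGF2R with IGFBP2 (0.729) were the most alike pairs.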

How the data were processed

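Expected counts per gene symbol for 138 libraries were deposited by the authors as 1 table of 16706 genes. They are estimated reads made with Salmon, whose version was not given in the sources used here, and edgeR was also named in the submitters' processing notes. The methods named the ARS-UCD1.2 build and the notes UMD3.1, so no coordinates are given. Libraries were made with a kit that keeps neither strand nor molecular identifiers. Values that were not whole (11.7%) were rounded, and no column was left unused (0).

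Polysome pools were the rounded F8 to F10 totals of a gradient. The 12 pools and 18 transcriptomes were fitted in 1 model of 12 groups with edgeR 4.0.16 (R 4.3.3, limma 3.58.1): filterByExpr, TMM, quasi-likelihood F test, Benjamini-Hochberg adjustment over 14612 genes. SEs are |log2 fold change| divided by the root of F. Calls were an adjusted p below 0.05, with a fold above 2 between stages. The trend used 100000 permutations. A group without reads was set at 3 counts per library, and folds of the other group's mean against it are lower bounds. Intervals and floors cover counting error only. The precision of low values follows the depths given with the samples. Python 3.11.15, numpy 2.4.6, pandas 2.3.3, scipy 1.17.1 and matplotlib 3.10.9 were used for summaries and figures. Scripts were tested on simulated data.

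The text names all 9 members, the 3 genes most like each, and per comparison of polysomes with transcriptome or of transcriptomes between stages the called gene of the list with the largest change in each direction. Genes named beyond these were chosen after their values were seen. Members and lists were chosen with earlier results of these data known. Alternatives were DESeq2 1.42.0, the likelihood ratio test, other scaling, filters, thresholds and fractions, equal depth (thinned to 3269385 counts), a replicate block and leaving out single libraries. Leaving out the libraries that stood apart and using F1 to F5 were added after seeing the data. A result the naming rule would give is not reported here. Sequences were not used here.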

Additional observations from a re-analysis of the deposited data

Results flagged for a closer look

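The change of the polysome-to-transcriptome ratio between consecutive stages differed from 0 for 3 of the genes. For INSR it was -12.64 on the log2 scale from the 2-cell to the 8-cell stage, for IRS1 9.73 from 8-cell to morula, and for IGFBP7 -9.11 from morula to blastocyst (edgeR adjusted p = 0.0172). Each test set the polysome change against the transcriptome change at the same step. In all 3 cases a group had 0 or 1 reads, so the sizes are fitted values and not bounds. The IRS1 change was 4.86 without morula pool A, and its call was lost with only F9 and F10 as polysomes (edgeR adjusted p = 0.151). The IGFBP7 change was -0.10 without morula pool B, and its adjusted p was 0.0612 without blastocyst pool A and 0.0762 without blastocyst pool B.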

How the results depend on the processing

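Depth limited INSR, IRS1 and IGFBP4, whose calls rest on few reads, and IRS2, which was not tested. With F3 to F5 in place of polysomes the direction or side turned for IGFBP4 in 8-cell embryos (-5.59), IRS1 in 8-cell embryos (2.95), INSR in morulae (-6.34) and IGF1R in blastocysts (-0.28), and with F1 and F2 for IRS1 in MII oocytes (-4.11) and IGF1R in blastocysts (-0.42). Leaving out single libraries moved the IGFBP7 difference in morulae from -8.13 (without pool B) to 1.78, the IGF2R polysome change from 8-cell to morula from -0.86 to 1.62, and the ratio change of IGFBP3 from -2.03 to 1.74 into and from -1.82 to 1.94 out of the 8-cell stage, the last 3 by the 8-cell pools. The IGFBP3 trend in GV oocytes was 0.0755 over F1 to F10. The cause of these turns was not tested. Calls of higher polysome levels numbered 23, and 9 with a fold above 8. With F9 and F10 as polysomes 5 of them were lost, and fits of the compared groups only lost IGF1R, IGF2R and IGFBP3 at the 8-cell stage (edgeR adjusted p = 0.0907, 0.0869 and 0.0574) and IRS1 at the morula (0.0516). The latter fits added IGF1R and IRS1 at GV, IGF1R at the 2-cell stage and IGFBP3 at the blastocyst stage. Over all genes they called 8635, 9155, 9260, 5348, 5368 and 6318 in stage order, against 5822, 8408, 7450, 8629, 7550 and 5862. Lower calls numbered 1, against 2 with the likelihood ratio test, 3 with DESeq2, 2 with F6 to F10, 4 with F3 to F5 and 2 with F1 and F2. Rises in transcriptomes numbered 5, against 8 with the likelihood ratio test, 9 with DESeq2 and 12 in fits of the compared groups only. The last fits called 4794, 3720, 8924, 3808 and 5380 of all genes in step order, against 2497, 1748, 7314, 2097 and 3163. Polysome rises numbered 4, against 7 with the likelihood ratio test and 1 in fits of the compared groups only, and falls 4 against 0 in those fits. Calls over all 14612 genes dropped as well in those fits. In step order they numbered 191, 495, 1630, 164 and 1 in polysomes, against 784, 1244, 6758, 5293 and 2034. Rising ratio changes numbered 1, against 0 in fits of the compared groups only and with F9 and F10. Falling ones numbered 2, against 4 with the likelihood ratio test, 0 in fits of the compared groups only, 0 at equal depth and 1 with the replicate block. Over all genes 264 to 1821 ratio changes were called per step. The range was 160 to 3700 in fits of the compared groups only and 128 to 1462 at equal depth. Without single libraries the counts ran from 20 to 23 higher and 1 to 2 lower in polysomes, 3 to 6 rises and 6 to 7 falls in transcriptomes, 3 to 7 and 3 to 5 in polysomes between stages, 1 to 3 and 1 to 5 for ratio changes, and 0 to 3 and 0 to 1 for trends. Same-letter libraries did not deviate together (correlations -0.0687 to 0.0355 in 12 pairs), and the letters were not treated as pairs. With 2 pools per group this check cannot exclude shared batches. The paper took its transcriptome pools from the batches used for fractionation, without saying which letters belong together. With the replicate block INSR in 2-cell embryos (adjusted p = 0.0831 with edgeR), the IGFBP7 polysome rise to MII (0.0672), the INSR ratio change (0.0579) and the IGFBP2 trend in GV oocytes (0.0871) lost their calls, and falling trends numbered 5 against 3. Library totals in place of TMM moved the median of all genes by up to 0.46 (MII to 2-cell transcriptomes). There the calls over all genes went from 877 higher and 871 lower to 1713 and 432, and from GV to MII from 966 and 1531 to 351 and 2099. Leaving out both libraries that stood apart also gave INSR a polysome fall of 6.62 from 2-cell to 8-cell (adjusted p = 0.0493 with edgeR).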
